A study of Mus musculus with 9 samples.

Results

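The 47 genes described here encode core proteins of the spliceosome and the Sm-like proteins. They are the rows of the deposited table whose symbol starts with Snrp, Sf3a, Sf3b or Prpf or is Lsm followed by a number, without entries named as pseudogenes, and they were taken out of 24454 genes by name alone. Their RNA was counted in 9 libraries of ICR mouse embryos, an outbred stock, each library made from 3 pooled embryos that had been cultured to the 2-cell stage. The 3 groups of 3 libraries each were embryos loaded with glucose and treated with rat serum that the labels call ZGW, embryos loaded with glucose alone, and a control group. They are called ZGW serum, high glucose and control below. Glucose loading is thus shared by the first 2 groups. The labels give neither the glucose concentration nor the age of the donor mice, and do not say what ZGW is or whether the other groups received serum of untreated rats. Whether a difference of the ZGW serum group from either other group includes an effect of rat serum as such is therefore not known.

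The spliceosome removes introns from nuclear transcripts. It is built from small nuclear ribonucleoproteins (snRNPs), each made of one or more small nuclear RNAs (snRNAs) and their proteins. Sm proteins form a ring around the U1, U2, U4 and U5 snRNAs, and the related Lsm proteins form a ring on U6 snRNA or, with Lsm1 in place of Lsm8, a cytoplasmic ring that takes part in the decay of mRNA. U1 snRNP recognises the start of an intron and U2 snRNP its branch point, after which the U4/U6.U5 tri-snRNP joins and catalysis is prepared. In the mouse the 2-cell stage is when the embryo's own genome is activated and many stored oocyte transcripts are cleared.

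Library totals ran from 11934924 to 16916343 counts. Of all genes, 16964 had enough counts to be tested, and the 47 genes were all among them. Levels are given as CPM, counts per 1000000 of a library's total after adjustment with TMM factors. By mean over the 9 libraries, 14 of the 47 genes were above 100 CPM, 26 lay between 10 and 100 CPM and 7 were below 10 CPM. On the first principal component of all genes, ZGW serum replicate 3 was at one end and control replicate 1 at the other. Those 2 libraries also had the lowest median rank correlation with libraries of the other groups, 0.803 in each, so results that rest on them are given with and without them. Whether the replicates came from separate matings is not given in the labels, and the p-values measure only the spread between these pooled samples.

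Oocyte and early embryo markers were abundant in every library. Of 10 such genes 9 averaged at least 10 CPM, with a summed level of 16246 to 40606 CPM with ZGW serum, 12047 to 17253 CPM under high glucose and 18218 to 26748 CPM in control. The 9 genes of a list of transient 2-cell transcripts that the table held all averaged at least 10 CPM. Their sum was 2774 to 7638 CPM with ZGW serum, 9371 to 13474 CPM under high glucose and 6531 to 11360 CPM in control. Markers of cumulus and granulosa cells, which surround the oocyte, summed to 7.96 to 22.3 CPM with ZGW serum, 16.0 to 22.9 CPM under high glucose and 24.2 to 47.1 CPM in control, with 1 of 14 averaging at least 10 CPM. Blood markers (2 of 9 at that level) summed to 323 to 532 CPM, 89.8 to 306 CPM and 234 to 357 CPM in those 3 groups, and stromal and epithelial markers (3 of 10) to 28.3 to 75.5 CPM, 65.0 to 116 CPM and 103 to 202 CPM. None of the listed genes was at 0 in all libraries. The part of these shifts in the differences described below was not tested.

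Levels of the 47 genes spanned several orders of magnitude. Per kilobase of the longest annotated transcript, Snrpg, a member of the Sm ring, was the most abundant, with a mean level of 1881 CPM per kb over the 9 libraries. Snrpe of the same ring was second with 844 CPM per kb. Lsm10 of the U7 snRNP followed with 299 CPM per kb, then Snrpd1 with 248 and Lsm14a with 183 CPM per kb. Subunits of 1 particle differed widely. Sf3b6, a small SF3b protein at the branch point, had a level of 120.1 CPM per kb, against 10.7 CPM per kb for Sf3b1 of the same particle. At the low end, Prpf19 had 0.229 CPM per kb and Snrpb, the SmB protein gene, 1.61 CPM per kb. The level of Snrpb was well below those of the other Sm ring genes. Snrpg remained first in each group, at 2943 ± 964 CPM per kb with ZGW serum, 1018 ± 84.0 under high glucose and 1680.0 ± 249 in control (SD, n = 3 each).

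**Figure D1:**
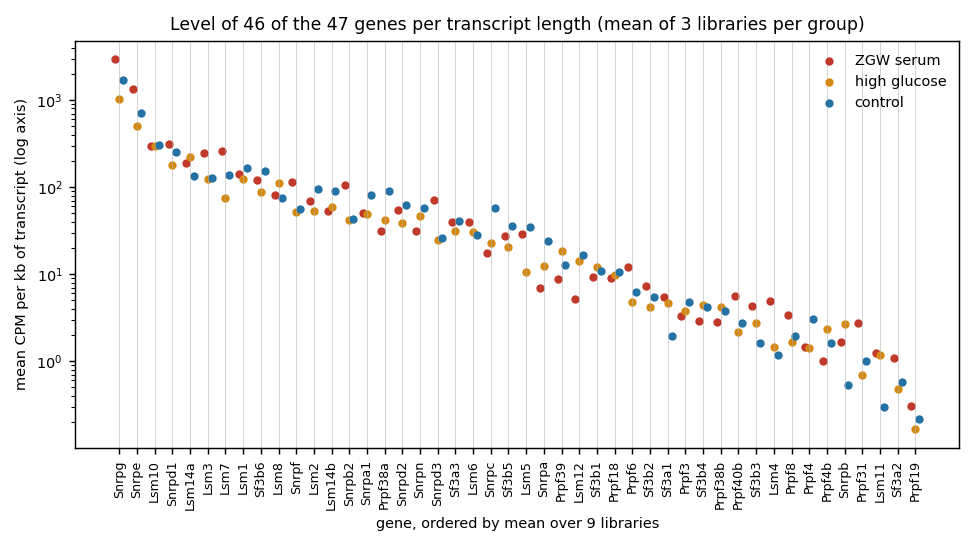
Mean level of 46 of the 47 genes in CPM per kb of transcript (log axis), ordered by the mean over the 9 libraries; each point is the mean of the 3 libraries of a group. Snrpg and Snrpe stand above the rest in the 3 groups, and Prpf19 is lowest.

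The promoters of 4 of these genes are shown because Snrpg and Snrpe had the lowest p-values of the Sm ring in the comparison of ZGW serum with high glucose, and Snrpc and Prpf38a the lowest of all 47 genes against control. Each is the RefSeq window of 300 bases on GRCm38.p6, from 250 bases before the annotated start to 50 bases after it. Capitals mark matches on either strand to CCGGAAG (the core that ETS factors bind), CCAAT (the CCAAT box) or GGGCGG (the GC box).
Snrpg, chr6:86371290-86371589, plus strand: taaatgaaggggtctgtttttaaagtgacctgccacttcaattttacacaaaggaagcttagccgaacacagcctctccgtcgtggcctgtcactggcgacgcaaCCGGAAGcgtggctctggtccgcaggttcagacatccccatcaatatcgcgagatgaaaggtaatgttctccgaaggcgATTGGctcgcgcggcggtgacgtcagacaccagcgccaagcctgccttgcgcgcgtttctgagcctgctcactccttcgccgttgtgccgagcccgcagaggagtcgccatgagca
Snrpe, chr1:133610231-133610530, minus strand: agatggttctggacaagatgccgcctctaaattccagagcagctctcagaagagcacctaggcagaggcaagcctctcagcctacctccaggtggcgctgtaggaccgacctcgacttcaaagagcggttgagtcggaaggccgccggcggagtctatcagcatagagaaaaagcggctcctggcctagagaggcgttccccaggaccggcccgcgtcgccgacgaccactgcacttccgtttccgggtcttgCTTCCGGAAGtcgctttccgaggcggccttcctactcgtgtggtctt
Snrpc, chr17:27839837-27840136, plus strand: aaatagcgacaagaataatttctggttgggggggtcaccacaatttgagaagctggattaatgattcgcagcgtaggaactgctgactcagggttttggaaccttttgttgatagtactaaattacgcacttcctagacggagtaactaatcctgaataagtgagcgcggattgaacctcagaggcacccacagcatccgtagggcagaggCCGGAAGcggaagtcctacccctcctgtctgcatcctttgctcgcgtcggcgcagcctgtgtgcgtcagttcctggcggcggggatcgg
Prpf38a, chr4:108579287-108579586, minus strand: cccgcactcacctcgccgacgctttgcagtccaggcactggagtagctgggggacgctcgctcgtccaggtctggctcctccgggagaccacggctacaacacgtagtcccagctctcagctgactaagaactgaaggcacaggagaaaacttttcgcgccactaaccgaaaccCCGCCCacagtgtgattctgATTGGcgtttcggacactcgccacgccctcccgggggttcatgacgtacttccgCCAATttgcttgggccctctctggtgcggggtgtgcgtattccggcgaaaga
The Snrpg, Snrpe and Snrpc windows each held CCGGAAG, and the Snrpg window also CCAAT. In the Snrpe window the match was read on both strands, since the letters of the 2 matches overlap. The Prpf38a window held no CCGGAAG, and had CCAAT and GGGCGG instead. RefSeq windows were found for 38 of the 47 genes, 48 windows in all, counting alternative starts. CCGGAAG was present in 16 of them, or 33.3%, against 11.6% of the 21263 windows of all protein-coding genes. CCAAT was found in 41.7% of the 48 windows and 38.2% of all windows, GGGCGG in 54.2% and 46.2%, and AAGATGGC, a motif of YY1, in 8.33% and 3.05%. TATAAA, the TATA box, was present in 6.25% of the 48 windows and 12.6% of all windows. These matches describe the letters only, and some genes have more than 1 window, of which some overlap each other.

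The 47 genes together took the largest part of the counts with ZGW serum and the smallest under high glucose. They held 0.660%, 0.790% and 0.982% of counts in the 3 ZGW serum libraries, 0.442%, 0.467% and 0.470% under high glucose and 0.555%, 0.649% and 0.522% in control. The 3 groups did not overlap on this scale. On library totals scaled with TMM factors ZGW serum and control overlapped, with 0.626%, 0.709% and 1.04% in ZGW serum libraries and 0.568%, 0.665% and 0.533% in control, and the high glucose libraries, at 0.466%, 0.448% and 0.481%, stayed below both. These are shares of the counts of pooled whole embryos, so they do not give the amount of RNA per cell or per embryo. Snrpg alone accounted for 0.237%, 0.315% and 0.400% of counts with ZGW serum, 0.0947%, 0.110% and 0.114% under high glucose and 0.190%, 0.186% and 0.144% in control, again without overlap. Snrpg made up 55.1% to 68.2% of the counts of the Sm ring in the 9 libraries, and of the counts of all 47 genes 36.0% to 40.7% with ZGW serum, 21.4% to 24.3% under high glucose and 27.6% to 34.2% in control. Without Snrpg the mean share of the other 46 genes was 0.493% ± 0.0817 with ZGW serum, 0.353% ± 0.00560 under high glucose and 0.402% ± 0.0526 in control (SD, n = 3 each). The 32 genes whose transcripts share at most 10% of their sequence with other genes lay closer together, at 0.292% ± 0.0295 with ZGW serum, 0.252% ± 0.00915 under high glucose and 0.265% ± 0.0313 in control. Their ZGW serum libraries were all above high glucose, and control overlapped with both. Without ZGW serum replicate 3 the mean share of the 47 genes in that group was 0.725%.

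**Figure D2:**
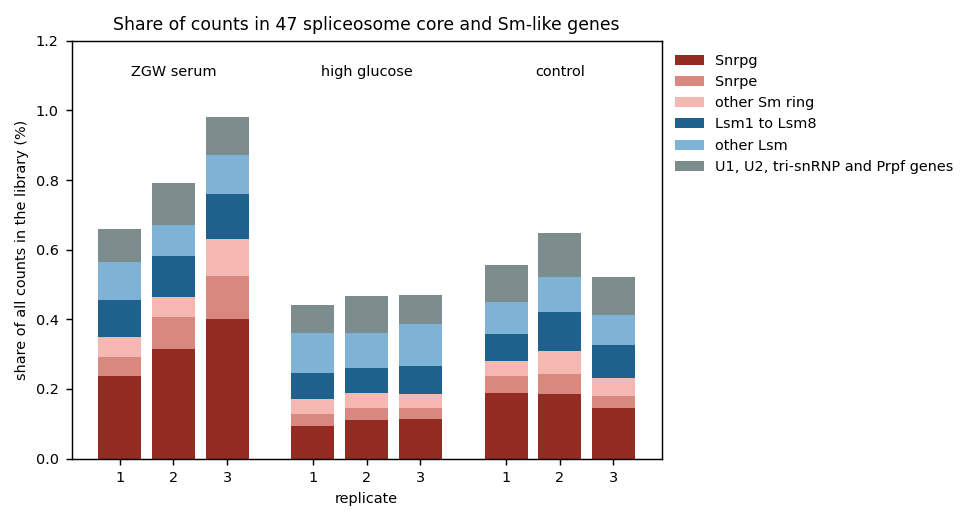
Share of all counts in each library (%) held by the 47 genes, stacked by Snrpg, Snrpe, the other Sm ring genes, Lsm1 to Lsm8, the other Lsm genes and the remaining genes. The ZGW serum libraries reach 0.660% to 0.982%, the high glucose libraries 0.442% to 0.470% and the control libraries 0.522% to 0.649%, and the 2 darkest red segments, Snrpg and Snrpe, differ most in height.

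The first comparison asks what loading with glucose did to these genes. Most of the 47 genes were lower under high glucose, with 33 lower and 14 higher and a median log2 fold change of -0.33, where the median of all genes tested was -0.02. Lower levels were seen for Prpf38a, a factor of the precatalytic spliceosome, at 64.2 ± 4.74 CPM under high glucose and 138 ± 27.6 CPM in control, and for Snrpc, a U1 protein, at 23.1 ± 4.63 CPM and 57.9 ± 5.04 CPM in the same groups (SD, n = 3 each). Lsm14a, a repressor of translation in RNP granules, was higher, at 655 ± 101 CPM under high glucose and 396 ± 106 CPM in control (SD, n = 3 each). At a Benjamini-Hochberg adjusted p under 0.05, edgeR's quasi-likelihood test called 0 of the 47 and 0% of all genes, and so did limma-voom. Before adjustment edgeR put 5 of the 47 lower and 2 higher at p under 0.05, where 3.50% of all genes were lower and 3.88% higher at that level. Non-overlapping libraries were found for 11 of the 47 genes on the lower side and 3 on the higher side, where 6.91% and 6.84% of all genes had them. DESeq2 called 2 of the 47, Prpf38a and Snrpc, both lower, among 0.760% of all genes. With control replicate 1 and ZGW serum replicate 3 both left out, 33 were still lower and 14 higher, with 6 lower and 0 higher at an unadjusted p under 0.05, against 3.16% and 3.94% of all genes. The median was -0.18 without high glucose replicate 1 and -0.15 over the 32 genes that share little sequence with others.

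The second comparison asks what the serum did in embryos that were all loaded with glucose. More of the 47 genes were higher with ZGW serum, with 30 higher and 17 lower and a median log2 fold change of 0.34, against 0.00 for all genes. The Sm ring genes Snrpg and Snrpe and the Lsm ring gene Lsm7 stood out, with 3105 ± 1018 CPM, 888 ± 403 CPM and 296 ± 77.4 CPM with ZGW serum, against 1074 ± 88.7 CPM, 334 ± 8.78 CPM and 84.6 ± 42.2 CPM under high glucose for the same genes (SD, n = 3 each). Lower values were found for the U1-associated factor Prpf39. After Benjamini-Hochberg adjustment, edgeR's test called 0 of the 47 and 0% of all genes, as did limma-voom. Unadjusted, edgeR had 10 of the 47 higher and 2 lower at p under 0.05, where 3.80% of all genes were higher and 4.89% lower at that level. Libraries did not overlap for 9 genes on the higher side and 4 on the lower side, against 9.08% and 8.28% of all genes. DESeq2 called Snrpg, Lsm7 and Snrpe, 3 of the 47, all higher, among 1.42% of all genes. Without ZGW serum replicate 3, 6 were higher and 1 lower at an unadjusted p under 0.05, against 3.01% and 4.35% of all genes. With control replicate 1 left out as well, 5 were higher and 1 lower at that p, against 3.04% and 4.85% of all genes. Without those 2 libraries 27 of the 47 were higher and 20 lower. The median was 0.19 without high glucose replicate 1 and 0.22 without ZGW serum replicate 3.

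The third comparison sets the serum-treated embryos against controls. The 47 genes were split, with 23 higher and 24 lower and a median log2 fold change of -0.01, against 0.00 for all genes. Higher values were seen for Sm ring genes such as Snrpf, at 98.8 ± 46.8 CPM with ZGW serum and 48.0 ± 5.08 CPM in control, and lower ones for Snrpc of U1, at 17.7 ± 4.84 CPM and 57.9 ± 5.04 CPM and for Prpf38a, at 47.8 ± 11.9 CPM and 138 ± 27.6 CPM in the same groups (SD, n = 3 each). edgeR's adjusted threshold was passed by 0 of the 47 and 0% of all genes, and that of limma-voom by 0 of the 47 and 0.00589% of all genes. At an unadjusted p under 0.05, 8 of the 47 were higher and 3 lower, where 4.21% of all genes were higher and 5.65% lower. Separate libraries were found for 10 genes on the higher side and 7 on the lower side, against 9.02% and 7.32% of all genes. DESeq2 called Prpf38a, Snrpc and Snrpa, 3 of the 47, all lower, among 2.05% of all genes. The count of 8 higher genes rested on ZGW serum replicate 3. Without it 1 was higher and 5 lower at an unadjusted p under 0.05, against 3.10% and 4.16% of all genes. With control replicate 1 left out as well, 1 was higher and 4 lower, against 2.73% and 3.82% of all genes. Without control replicate 2 the median was 0.21.

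The comparisons share groups, so their values are set side by side only. Snrpg, Snrpe and Lsm7 were lower under high glucose than in control and higher with ZGW serum than under high glucose, with no overlap either time. Lsm2, Prpf38a, Snrpa1 and Snrpc were lower than control in both glucose-loaded groups, with no overlap either time. Each pattern turns on the libraries of a shared group, high glucose in the first and control in the second. How many of all genes showed either pattern was not counted.

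**Figure D3:**
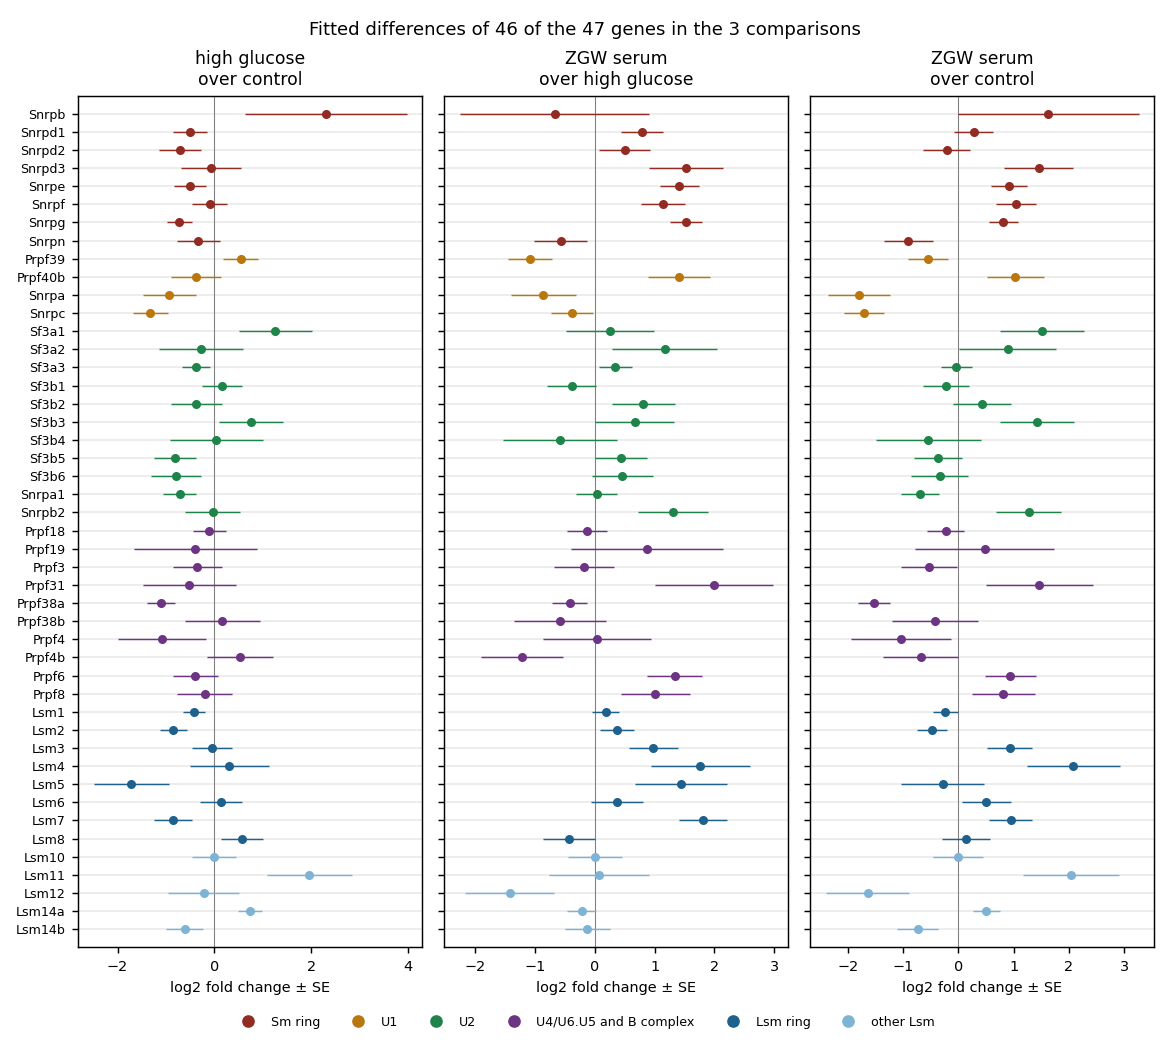
Log2 fold change with its standard error (edgeR's quasi-likelihood fit) of 46 of the 47 genes in the 3 comparisons, grouped and coloured by role. High glucose over control has 33 points left of 0, ZGW serum over high glucose has 30 right of 0, and ZGW serum over control has 23 right of 0.

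The Sm ring is assembled on each snRNA by the SMN complex from SmB, SmD1, SmD2, SmD3, SmE, SmF and SmG, encoded by Snrpb and Snrpd1 to Snrpg. Snrpg (chromosome 6, 86371304 to 86379328, GRCm38) carried most of its counts. Snrpg had 2253, 2831 and 4232 CPM with ZGW serum, 999.9, 1050.3 and 1172 CPM under high glucose and 1939, 1909 and 1469 CPM in control. The ZGW serum libraries were all above control and the high glucose libraries all below it, and ZGW serum replicate 3 was the highest. By edgeR's fit the log2 fold change of Snrpg was -0.72 ± 0.26 (SE) for high glucose over control, 1.53 ± 0.27 for ZGW serum over high glucose and 0.81 ± 0.26 for ZGW serum over control, with Benjamini-Hochberg adjusted p of 0.627, 0.370 and 0.409. DESeq2 called the difference for ZGW serum over high glucose (adjusted p = 0.00044). Without ZGW serum replicate 3 that log2 fold change was 1.27 by edgeR. Snrpe (chromosome 1, 133603871 to 133610291), the neighbour of SmG in the ring, had a like pattern. Snrpe had 526, 815 and 1322 CPM with ZGW serum, 342, 335 and 324 CPM under high glucose and 489, 574 and 356 CPM in control. With ZGW serum 2 of the 3 libraries lay above every control library and the lowest lay among them, while high glucose was below both other groups. Snrpe had a log2 fold change of 1.41 ± 0.33 for ZGW serum over high glucose (edgeR adjusted p = 0.370, DESeq2 adjusted p = 0.0187) and 0.91 ± 0.33 for ZGW serum over control. Without ZGW serum replicate 3 these were 1.03 and 0.53.

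The other Sm genes were less abundant. Snrpf had 53.1, 96.8 and 147 CPM with ZGW serum, 43.9, 42.0 and 48.4 CPM under high glucose and 42.1, 50.8 and 51.0 CPM in control. The ZGW serum libraries were all above both other groups, which overlapped with each other. Snrpf had a log2 fold change of 1.14 ± 0.36 (SE) for ZGW serum over high glucose (edgeR adjusted p = 0.465) and 1.04 ± 0.36 for ZGW serum over control (edgeR adjusted p = 0.428). Without ZGW serum replicate 3 these were 0.77 and 0.67, and the second was 0.58 with control replicate 1 left out as well. Its transcript overlaps that of Ccdc38, with 89.5% of its 50-base stretches also found in other genes' transcripts, so the counts cannot be assigned with certainty. Ccdc38 itself averaged 125 ± 48.6 CPM with ZGW serum, 105 ± 15.7 CPM under high glucose and 89.2 ± 25.7 CPM in control (SD, n = 3 each). Snrpd1 had 185, 218 and 395 CPM with ZGW serum, 171, 160.3 and 131 CPM under high glucose and 141, 295 and 221 CPM in control. ZGW serum lay above high glucose without overlap and overlapped with control. When single libraries were left out, the log2 fold change of Snrpd1 for ZGW serum over high glucose was lowest without ZGW serum replicate 3, at 0.41. It was highest without ZGW serum replicate 1, at 0.99. Snrpd2 had 85.0, 66.9 and 78.6 CPM with ZGW serum, 64.5, 75.0 and 23.5 CPM under high glucose and 126, 78.3 and 61.9 CPM in control, and the 3 groups overlapped. Snrpd3 had 84.8, 92.7 and 469 CPM with ZGW serum, 64.6, 62.2 and 97.9 CPM under high glucose and 43.3, 105 and 88.1 CPM in control. ZGW serum replicate 3 stood far above the other 8 libraries, which overlapped. For ZGW serum over control Snrpd3 had a log2 fold change of 1.45 ± 0.62 with all libraries (edgeR adjusted p = 0.483), 0.20 without ZGW serum replicate 3 and -0.10 with control replicate 1 left out as well.

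The gene for SmB itself was nearly silent in the counts. Snrpb had 5.36, 0.425 and 0 CPM with ZGW serum, 2.42, 4.53 and 2.28 CPM under high glucose and 0.437, 1.41 and 0 CPM in control. A count of 0 in ZGW serum replicate 3 allows up to 0.266 CPM and in control replicate 3 up to 0.219 CPM, taking 3 counts as the limit (counting error only). At these levels the fitted differences of Snrpb had standard errors of 1.59 to 1.67 on the log2 scale and are not read further. Snrpn, the imprinted paralogue of SmB known from the brain, was the more abundant of the pair. Snrpn had 112, 43.0 and 37.7 CPM with ZGW serum, 125, 65.6 and 95.3 CPM under high glucose and 89.5, 159 and 112 CPM in control. Its libraries overlapped between all groups, and the log2 fold change for ZGW serum over control was -0.90 ± 0.45 (SE; edgeR adjusted p = 0.534), and -1.58 without ZGW serum replicate 1. Snrpn and Snurf are encoded by 1 bicistronic transcript, and Snurf had nearly the same values, with 64.2 ± 41.5 CPM with ZGW serum, 95.3 ± 29.9 CPM under high glucose and 120.2 ± 35.6 CPM in control (SD, n = 3 each), so the counts do not separate them.

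**Figure D4:**
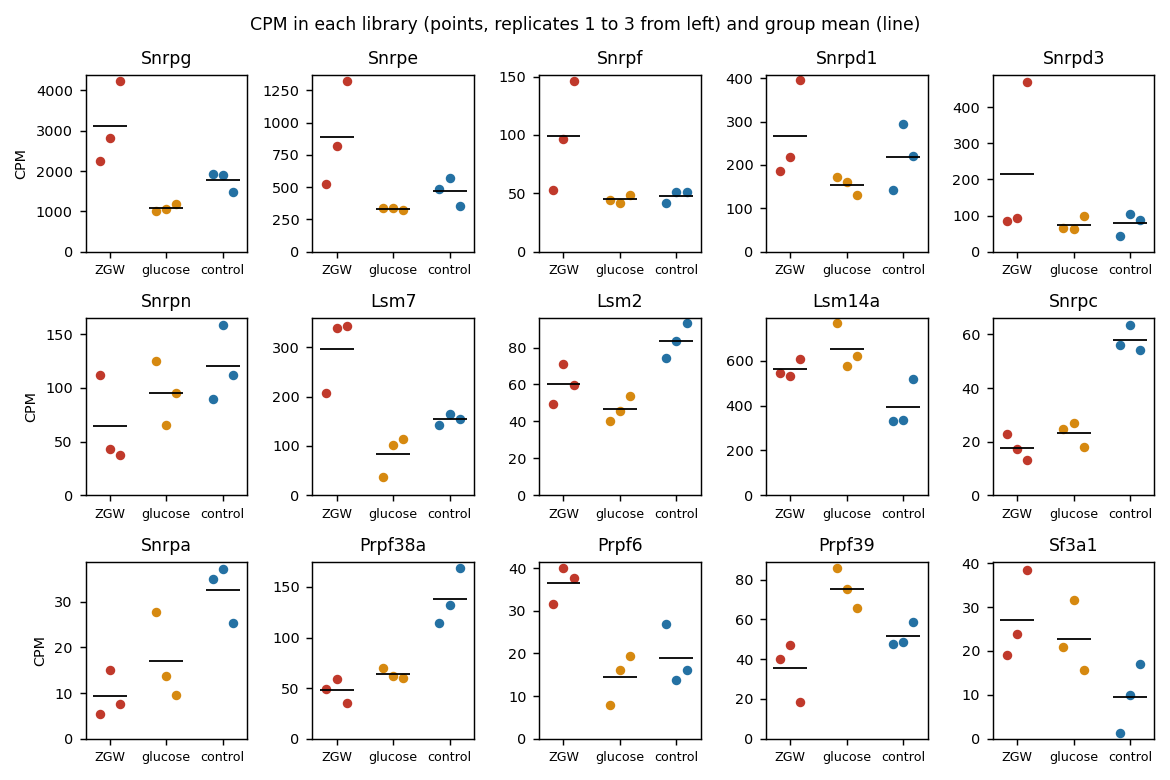
CPM of 15 of the 47 genes in every library (points, replicates 1 to 3 from left) with the group mean (line), each panel with its own axis from 0. Snrpg, Snrpe and Lsm7 are highest with ZGW serum and lowest under high glucose, Snrpc and Prpf38a are highest in control, and Snrpd3 is high in ZGW serum replicate 3 alone.

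Among the genes of U1 snRNP and its partners described here, Snrpc showed the clearest difference from control. It encodes the C protein of U1, which contacts the base pairs between U1 snRNA and the start of the intron (chromosome 17, 27838150 to 27851968, GRCm38). Snrpc had 22.8, 17.2 and 13.1 CPM with ZGW serum, 24.6, 26.8 and 17.9 CPM under high glucose and 55.9, 63.6 and 54.1 CPM in control. Every control library was above every library of the glucose-loaded groups, and those groups overlapped with each other. Snrpc had log2 fold changes of -1.32 ± 0.36 (SE) for high glucose over control and -1.71 ± 0.36 for ZGW serum over control, with edgeR adjusted p of 0.627 and 0.338 and DESeq2 adjusted p of 0.0158 and 0.000123. Of its 50-base stretches 19.6% occur in other genes' transcripts. Snrpa, the A protein of U1 that binds a stem-loop of U1 snRNA, was ordered likewise. Snrpa had 5.36, 15.0 and 7.72 CPM with ZGW serum, 27.8, 13.8 and 9.61 CPM under high glucose and 35.0, 37.2 and 25.4 CPM in control. ZGW serum lay below control without overlap, and high glucose overlapped with both. Between ZGW serum and control its log2 fold change was -1.79 ± 0.56 (edgeR adjusted p = 0.404, DESeq2 adjusted p = 0.0355), and 31.1% of its stretches are shared.

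The U1-associated splicing factor Prpf39 was instead highest under high glucose. Prpf39 had 40.2, 47.3 and 18.5 CPM with ZGW serum, 85.7, 75.1 and 65.7 CPM under high glucose and 47.6, 48.8 and 58.8 CPM in control. High glucose lay above both other groups without overlap, and ZGW serum lay below control by a small margin. Prpf39 had log2 fold changes of 0.54 ± 0.37 (SE) for high glucose over control and -1.09 ± 0.37 for ZGW serum over high glucose (edgeR adjusted p = 0.794 and 0.481). For ZGW serum over control it was -0.55 ± 0.37. Without ZGW serum replicate 3 the log2 fold change was -0.76 for ZGW serum over high glucose and -0.22 for ZGW serum over control. Fkbp3, the overlapping neighbour with which Prpf39 shares 12.5% of its stretches, averaged 58.0 ± 36.8 CPM with ZGW serum, 144 ± 14.4 CPM under high glucose and 78.6 ± 25.4 CPM in control (SD, n = 3 each). Prpf40b, a further factor that associates with U1, ran the other way. Prpf40b had 18.5, 23.0 and 14.6 CPM with ZGW serum, 4.38, 8.76 and 8.06 CPM under high glucose and 7.79, 10.1 and 9.63 CPM in control, so that ZGW serum lay above both other groups.

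U2 snRNP, with its SF3a and SF3b subcomplexes, accounted for 11 genes. Snrpa1 and Snrpb2 encode proteins that bind U2 snRNA as a pair. Snrpa1 had 74.0, 71.0 and 43.6 CPM with ZGW serum, 39.4, 76.8 and 68.5 CPM under high glucose and 111, 114 and 78.8 CPM in control. Control was above both glucose-loaded groups by a small margin and without overlap. Snrpb2 had 82.9, 88.6 and 475 CPM with ZGW serum, 106, 74.4 and 80.3 CPM under high glucose and 76.7, 94.5 and 96.8 CPM in control. As with Snrpd3, ZGW serum replicate 3 was far above the other 8 libraries, and the log2 fold change for ZGW serum over high glucose was 1.31 ± 0.58 (SE) with all libraries and 0.01 without that one. Sf3b1, the scaffold protein around the branch point, showed no such order. Sf3b1 had 44.9, 81.2 and 46.1 CPM with ZGW serum, 75.8, 82.4 and 67.3 CPM under high glucose and 80.4, 89.9 and 31.2 CPM in control, and the 3 groups overlapped.

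Sf3a1, the largest subunit of SF3a, was low in control. Sf3a1 had 19.1, 23.8 and 38.5 CPM with ZGW serum, 20.9, 31.7 and 15.7 CPM under high glucose and 1.24, 10.05 and 17.1 CPM in control. ZGW serum lay above control without overlap, and its log2 fold change for high glucose over control was 1.26 ± 0.75 (SE; edgeR adjusted p = 0.758), with control replicate 1 the lowest library. That difference was 0.74 without control replicate 1 and 1.98 without control replicate 3. Sf3b3 was also above control with ZGW serum, with 16.1, 19.5 and 23.2 CPM with ZGW serum, 16.0, 4.38 and 16.7 CPM under high glucose and 5.61, 3.50 and 12.8 CPM in control. The small subunit Sf3b5 and the third SF3a protein Sf3a3 had high glucose below control without overlap. Sf3b5 averaged 78.3 ± 32.2 CPM under high glucose and 138 ± 28.8 CPM in control, and Sf3a3 56.8 ± 4.19 CPM and 74.0 ± 4.46 CPM (SD, n = 3 each). The remaining U2 genes, Sf3a2, Sf3b2, Sf3b4 and Sf3b6, overlapped between all groups. Of the 11 U2 genes, 7 were lower under high glucose than in control and 9 were higher with ZGW serum than under high glucose, with 0 and 1 at an unadjusted p under 0.05 by edgeR in those comparisons, where 3.50% and 3.80% of all genes were. The 1 gene was Snrpb2. Without ZGW serum replicate 3, 8 of the 11 were higher with ZGW serum than under high glucose, 0 of them at that p, against 3.01% of all genes.

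Among the 10 genes of the tri-snRNP and the later spliceosome, Prpf38a differed most from control. It encodes a protein that joins the spliceosome before catalytic activation (chromosome 4, 108563172 to 108579336, GRCm38), and 0.136% of its stretches occur in another gene. Prpf38a had 49.5, 58.8 and 35.2 CPM with ZGW serum, 69.5, 62.5 and 60.5 CPM under high glucose and 114, 132 and 168 CPM in control. The 3 groups did not overlap, with control highest and ZGW serum lowest. Prpf38a had log2 fold changes of -1.11 ± 0.29 (SE) for high glucose over control, -0.42 ± 0.29 for ZGW serum over high glucose and -1.53 ± 0.29 for ZGW serum over control, with edgeR adjusted p of 0.627, 0.730 and 0.338. DESeq2 called both differences from control (adjusted p = 0.0237 for high glucose and 7.63e-05 for ZGW serum). Its paralogue Prpf38b was much lower and overlapped between groups, with means of 8.42 ± 5.27 CPM with ZGW serum, 12.7 ± 7.13 CPM under high glucose and 11.3 ± 8.85 CPM in control (SD, n = 3 each).

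Prpf6, which bridges U5 snRNP with U4/U6, was highest with ZGW serum. Prpf6 had 31.7, 39.9 and 37.6 CPM with ZGW serum, 7.86, 16.1 and 19.3 CPM under high glucose and 26.9, 13.8 and 16.1 CPM in control. ZGW serum lay above both other groups without overlap. Between ZGW serum and high glucose the log2 fold change of Prpf6 was 1.33 ± 0.46 (SE; edgeR adjusted p = 0.493), it was 1.34 without ZGW serum replicate 3, and no stretch of the gene is shared. The kinase Prpf4b was lower with ZGW serum than under high glucose without overlap, and overlapped with control. Prpf4b had 8.74, 11.3 and 3.46 CPM with ZGW serum, 11.8, 21.3 and 21.8 CPM under high glucose and 20.2, 13.6 and 3.94 CPM in control. Prpf8, the central U5 protein at the catalytic site, and Prpf31, which binds the U4 snRNP, were present at low levels. Prpf8 had 33.6, 23.1 and 18.7 CPM with ZGW serum, 7.78, 21.6 and 7.98 CPM under high glucose and 7.57, 15.3 and 20.1 CPM in control. Prpf31 had 11.9, 4.99 and 9.05 CPM with ZGW serum, 0.604, 3.38 and 2.52 CPM under high glucose and 1.17, 1.12 and 7.08 CPM in control. Prpf31 was higher with ZGW serum than under high glucose without overlap, at 94 to 151 counts per library against 8 to 44 counts, and Prpf8 overlapped. Prpf19 had 3.31, 2.18 and 0 CPM with ZGW serum, 0.378, 1.15 and 1.47 CPM under high glucose and 1.53, 0.447 and 1.97 CPM in control, the lowest of the 47 genes per kilobase, and its count of 0 in ZGW serum replicate 3 allows up to 0.266 CPM. Prpf3, Prpf4 and Prpf18 overlapped between all groups.

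Of Lsm1 to Lsm8, Lsm7 differed most for ZGW serum over high glucose (chromosome 10, 80852821 to 80855209, GRCm38). It is part of both Lsm rings. Lsm7 had 207, 338 and 344 CPM with ZGW serum, 36.3, 102 and 115 CPM under high glucose and 143, 164 and 154 CPM in control. The 3 groups did not overlap, with ZGW serum highest and high glucose lowest. The log2 fold change of Lsm7 was -0.86 ± 0.39 (SE) for high glucose over control, 1.81 ± 0.40 for ZGW serum over high glucose and 0.95 ± 0.39 for ZGW serum over control, with edgeR adjusted p of 0.682, 0.370 and 0.480. DESeq2 called the second of these (adjusted p = 0.00704). Without ZGW serum replicate 3 it was 1.72 by edgeR, the first was -0.50 without high glucose replicate 1, and 20.0% of the gene's stretches are shared with other transcripts. Lsm2, the Lsm counterpart of a D-type Sm protein, shares none. Lsm2 had 49.6, 70.9 and 59.6 CPM with ZGW serum, 40.1, 45.9 and 53.6 CPM under high glucose and 74.2, 83.5 and 93.3 CPM in control. High glucose and ZGW serum both lay below control without overlap, with a log2 fold change of -0.85 ± 0.28 for high glucose over control (edgeR adjusted p = 0.627).

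Lsm1 and Lsm8 define the cytoplasmic and the nuclear ring. Lsm1 had 420.5, 339 and 374 CPM with ZGW serum, 377, 298 and 326 CPM under high glucose and 394, 520.0 and 421 CPM in control. High glucose was below control without overlap, and ZGW serum overlapped with both. Lsm8 had 62.2, 79.9 and 55.3 CPM with ZGW serum, 147, 78.7 and 42.5 CPM under high glucose and 41.3, 78.6 and 59.8 CPM in control, with overlap between all groups. The ratio of Lsm1 to Lsm8, each per kilobase, was 1.80 ± 0.441 with ZGW serum, 1.42 ± 0.806 under high glucose and 2.34 ± 0.480 in control (SD, n = 3 each), and the groups overlapped. Lsm3 had 142, 98.5 and 305 CPM with ZGW serum, 92.4, 74.7 and 109.9 CPM under high glucose and 71.9, 128 and 86.2 CPM in control. ZGW serum replicate 3 was highest and the groups overlapped. Lsm4 had 6.38, 1.96 and 5.41 CPM with ZGW serum, 1.44, 1.84 and 0.733 CPM under high glucose and 1.31, 1.04 and 0.876 CPM in control, so ZGW serum lay above both other groups, at 37 to 81 counts per library against 9 to 24 counts under high glucose and 12 to 18 counts in control. Lsm5 had 8.35, 4.30 and 30.1 CPM with ZGW serum, 5.44, 3.84 and 6.43 CPM under high glucose and 8.01, 27.2 and 16.6 CPM in control. High glucose lay below control, ZGW serum spanned both, and 44.0% of the stretches are shared. Between high glucose and control Lsm5 had a log2 fold change of -1.72 ± 0.77 (SE; edgeR adjusted p = 0.672). Lsm6 had 127, 134 and 191 CPM with ZGW serum, 79.6, 96.8 and 175 CPM under high glucose and 45.7, 136 and 136 CPM in control, with overlap throughout. The summed share of Lsm1 to Lsm8 was 0.119% ± 0.0106 with ZGW serum, 0.0759% ± 0.00421 under high glucose and 0.0941% ± 0.0175 in control (SD, n = 3 each).

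The other Lsm genes act outside the spliceosome. Lsm10 and Lsm11 replace SmD1 and SmD2 in the U7 snRNP, which processes the ends of histone mRNAs. Lsm10 was abundant, with means of 282 ± 143 CPM with ZGW serum, 281 ± 134 CPM under high glucose and 284 ± 66.0 CPM in control (SD, n = 3 each). Lsm11 had 8.74, 4.25 and 11.0 CPM with ZGW serum, 6.72, 3.15 and 12.9 CPM under high glucose and 2.11, 3.20 and 0.511 CPM in control, and ZGW serum lay above control without overlap at these low levels. Lsm14a, which keeps mRNAs in translationally silent granules, was lowest in control. Lsm14a had 546, 533 and 607 CPM with ZGW serum, 769.7, 576 and 620.2 CPM under high glucose and 333, 336 and 519 CPM in control. Both glucose-loaded groups lay above control, and they overlapped with each other. The log2 fold change of Lsm14a was 0.73 ± 0.25 (SE) for high glucose over control (edgeR adjusted p = 0.627), and no stretch is shared with another gene. Its paralogue Lsm14b, known as an RNA-binding protein of the oocyte, overlapped between groups. Lsm14b had 107, 115 and 192 CPM with ZGW serum, 181, 123 and 147 CPM under high glucose and 231, 336 and 123 CPM in control. Lsm12 had 14.7, 18.3 and 2.48 CPM with ZGW serum, 64.4, 18.4 and 12.8 CPM under high glucose and 42.5, 40.6 and 28.1 CPM in control. ZGW serum lay below control without overlap and high glucose replicate 1 stood above the rest. Lsm12 had log2 fold changes of -1.43 ± 0.75 for ZGW serum over high glucose (edgeR adjusted p = 0.625) and -1.64 ± 0.75 for ZGW serum over control (edgeR adjusted p = 0.510). The first was -0.40 without high glucose replicate 1 and -0.93 without ZGW serum replicate 3, and the second -1.04 with control replicate 1 and ZGW serum replicate 3 both left out.

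By role, 6 of the 8 Sm ring genes were higher with ZGW serum than under high glucose, 5 of them at an unadjusted p under 0.05, where 3.80% of all genes were, with a median log2 fold change of 0.97. The median was 0.46 with ZGW serum replicate 3 left out. In that fit 6 of 8 were higher and 3 were so at that p, against 3.01% of all genes. Against control 6 of 8 were also higher, with a median of 0.86, and without that library 5 of 8, with a median of 0.36. Under high glucose against control 7 of the 8 were lower, Snrpb being the exception, with a median of -0.42, and -0.15 without control replicate 2. Of the U1 genes, Snrpa, Snrpc and Prpf39 had negative log2 fold changes with ZGW serum against both other groups, and Prpf40b positive ones. Of Lsm1 to Lsm8, 7 were higher with ZGW serum than under high glucose, Lsm8 being the exception, with a median of 0.67, and 0.35 without ZGW serum replicate 3. Tri-snRNP and later genes were split 5 and 5 in that comparison. The median over all genes tested was 0.00 for ZGW serum over high glucose, 0.00 for ZGW serum over control and -0.02 for high glucose over control. edgeR called 0 genes of any role at an adjusted p under 0.05.

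Short transcripts and shared sequence moved with the differences of high glucose over control and of ZGW serum over high glucose. Most genes that share over 10% are also short, so length and sharing are not separated here. Of the 47 genes, 15 share over 10% of their 50-base stretches with transcripts of other genes, and 16 share none. How reads that match several places were counted is not given in the sources used here. Snrpg shares 18.6%, Snrpe 20.8%, Lsm7 20.0% and Sf3b4 51.2%. The median log2 fold change for ZGW serum over high glucose was 0.22 over the 32 genes with little sharing and 0.34 over all 47. Across the 47 genes, the log2 fold change had a Spearman correlation with transcript length of 0.36 for high glucose over control, -0.22 for ZGW serum over high glucose and 0.01 for ZGW serum over control. The points share libraries and are not independent replicates. Across 16752 genes with a known length the same correlations were 0.18, -0.12 and 0.04. The 23 genes with transcripts under 2256 bases had a median of -0.50 for high glucose over control, against -0.20 for all genes under that length, and the 24 longer ones a median of -0.15, against 0.11 for all longer genes. Between ZGW serum and high glucose the short ones had a median of 0.46, against 0.12 for all short genes, and the long ones 0.13, against -0.07. With a smooth trend on length removed, the medians of the 47 genes were -0.23 for high glucose over control, 0.31 for ZGW serum over high glucose and 0.08 for ZGW serum over control. The part of length and of shared sequence in single genes was not tested.

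**Figure D5:**
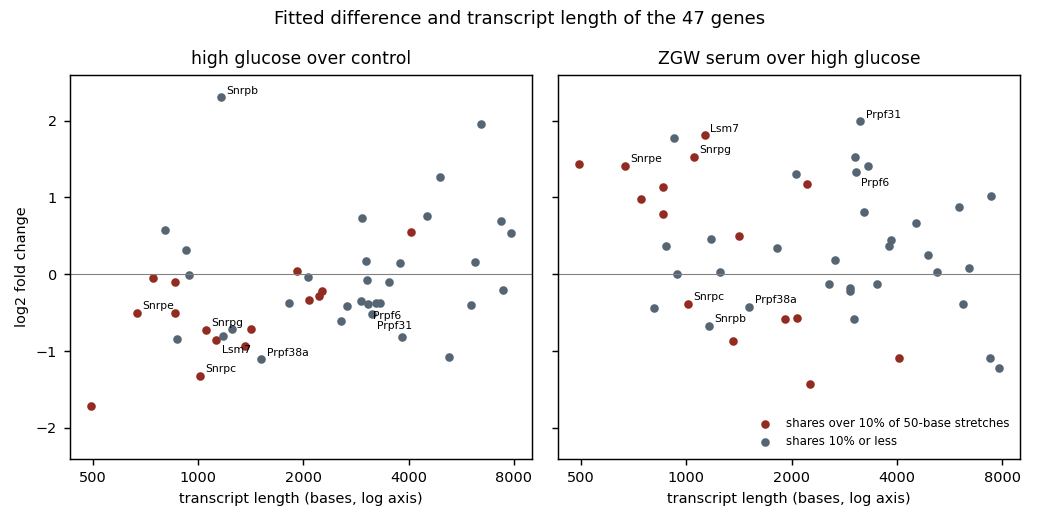
Log2 fold change of the 47 genes against transcript length (bases, log axis) for high glucose over control and ZGW serum over high glucose; red points share over 10% of their 50-base stretches with other genes. Short genes lie lower in the first panel, with a Spearman correlation of 0.36, and higher in the second, with -0.22, and most red points are short.

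Lists of other proteins of the splicing machinery were counted in the same way. Of 60 tested genes of other snRNP and core spliceosome proteins, 26 were higher and 34 lower with ZGW serum than under high glucose, with a median log2 fold change of -0.17. edgeR called 0 of them, as it did of every list named here. Ppih, a cyclophilin bound to the U4/U6 snRNP, had 762, 828 and 887 CPM with ZGW serum, against 334, 412 and 482 CPM under high glucose. Its control libraries had 668, 728 and 561 CPM, so that the 3 groups did not overlap. The log2 fold change of Ppih was 1.01 ± 0.23 (SE) for ZGW serum over high glucose and -0.67 ± 0.23 for high glucose over control (edgeR adjusted p = 0.370 and 0.627). The SR proteins and hnRNPs, which choose splice sites, had 26 of 42 lower with ZGW serum than under high glucose, with a median of -0.22 and 5 at an unadjusted p under 0.05, where 4.89% of all genes were lower. Srsf5 among them averaged 40.0 ± 25.3 CPM with ZGW serum and 111 ± 34.9 CPM under high glucose (SD, n = 3 each). Genes for Sm ring assembly and snRNA processing had 21 of 32 lower in that comparison, with a median of -0.36. Smn1, the core of the SMN complex, had 71.8, 20.7 and 60.1 CPM with ZGW serum, against 101, 117 and 93.8 CPM under high glucose, without overlap. Its log2 fold change was -1.03 ± 0.40 (edgeR adjusted p = 0.533), opposite in sign to those of Snrpg and Snrpe. Larp7, which binds U6 snRNA and 7SK RNA, averaged 15.8 ± 5.45 CPM with ZGW serum and 42.0 ± 8.97 CPM under high glucose (SD, n = 3 each).

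Partners of the Lsm1 to Lsm7 ring in mRNA decay had 14 of 21 tested genes lower with ZGW serum than under high glucose, with a median of -0.15. Cnot7, a deadenylase, averaged 848 ± 199.7 CPM with ZGW serum and 1409 ± 462 CPM under high glucose. Between high glucose and control 11 of the 21 were higher and 10 lower. Patl1, which binds the Lsm1 to Lsm7 ring, averaged 42.8 ± 21.2 CPM under high glucose and 15.2 ± 7.89 CPM in control (SD, n = 3 each). Of 13 proteins of the minor spliceosome, which removes a rare class of introns, 10 were lower with ZGW serum than in control, with a median of -0.30, and 7 were higher than under high glucose. Under high glucose against control, the core list was split 30 and 30, and the SR and hnRNP list had 23 of 42 higher. In that comparison 33 of the 47 Sm, Lsm, SF3 and Prpf genes were lower. So were 9 of the 13 minor spliceosome genes, with a median of -0.22. Genes for Sm ring assembly and snRNA processing had 17 of 32 lower, with a median of -0.22. Differences between these lists were not tested.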

How the data were processed

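Total RNA of 9 pooled samples was sequenced with standard Illumina libraries, per the labels' protocols. The authors deposited raw read counts per gene symbol, whole numbers with no normalization. Per the submitters' processing notes, reads were handled with Trim Galore and the build was mm10. Neither the aligner nor the counter, the annotation, the strand setting or the handling of multi-mapping reads is given in the sources used here, and these can change the counts of short genes with near copies. Replicates of a group differed beyond sampling noise (chi-square per degree of freedom 46.5 to 124).

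Groups and replicates came from the labels. edgeR 4.0.16 (R 4.3.3) was used for the main test: quasi-likelihood with robust estimation and TMM factors, after filterByExpr with a minimum of 10 counts, in 1 fit of the 9 libraries, with Benjamini-Hochberg adjustment over 16964 genes called at 0.05. Across genes the biological coefficient of variation was 0.731. A standard error is the log2 fold change divided by the square root of its F value. Groups were said not to overlap when every library of one lay above every library of the other in CPM. The fit was also run on counts simulated from the means and spread of these data, and no result given here rests on that run. Alternatives were DESeq2 1.42.0, limma-voom (limma 3.58.1) with quality weights, RLE factors, no filter, 10 counts in 6 libraries, fits limited to 2 groups, a block for the replicate number, each library left out, and removal of a loess trend on transcript length. Leaving out both libraries that lie apart, and counting only the members with little shared sequence, were added after the data were seen. DESeq2 gave no adjusted p for 1202 genes between high glucose and control, 874 between ZGW serum and high glucose and 2477 between ZGW serum and control, among them 1 of the 47.

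Members, roles, gene lists, markers and the rule for named genes were chosen with earlier results of these data known. The rule gives the Sm ring, Lsm1 to Lsm8 and 8 further genes in every library, and in each comparison the 5 members of lowest p-value each way with a mean of at least 10 CPM, since none passed. One member is counted in the totals and is not reported by name here. Other lists give up to 3 genes by the same measure. Genes shown beyond the rule (Prpf40b, Sf3b3, Sf3b5, Sf3a3, Prpf38b, Lsm10, Lsm11, Lsm14b) were picked after their values were seen, to complete their roles. Lengths, positions and shared 50-base stretches came from GENCODE transcripts of GRCm38, the assembly mm10 names, with a limit of 10%. The length and stretches of a gene are those of its longest annotated transcript, which need not be the one expressed. Promoter windows came from RefSeq (GRCm38.p6).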

Additional observations from a re-analysis of the deposited data

How the results depend on the processing

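Under 17 alternatives per comparison, the adjusted threshold was passed by 0 of the 47 genes except with DESeq2, which called 2 between high glucose and control, 3 between ZGW serum and high glucose and 3 between ZGW serum and control, among 129, 241 and 348 of all genes. Between ZGW serum and control limma-voom, no filter on low counts and 10 counts in 6 libraries each called 1 gene of all. Leaving out single libraries moved the median log2 fold change of the 47 genes to between -0.43 and -0.18 for high glucose against control, 0.19 and 0.38 for ZGW serum against high glucose, and -0.082 and 0.21 for ZGW serum against control. Only members with little shared sequence gave -0.15 for high glucose against control. The members' share of counts ran from 0.725% to 0.886% with ZGW serum, 0.455% to 0.468% under high glucose and 0.539% to 0.602% in control when single libraries were left out. It was 0.292%, 0.252% and 0.265% in the same groups without members sharing over 10% and 0.493%, 0.353% and 0.402% without Snrpg, fewer genes by construction. Of 540 alternative values of the 30 named differences, 8 passed the threshold with DESeq2 and 1 reversed: Snrpd3 between ZGW serum and control, at -0.10 with control replicate 1 and ZGW serum replicate 3 both left out. In size, 25 of them, from 11 differences, moved by over 1.5 times, among them Lsm8 between high glucose and control (0.017, against 0.58) and Snrpa between ZGW serum and high glucose (-0.32, against -0.86), both without high glucose replicate 1, and Lsm2 between high glucose and control (-0.56, against -0.85) with the length trend removed. Deviations of same-numbered libraries were weakly correlated, from -0.0065 to 0.1036 over 9 pairs, against -0.095 to 0.0458 for 18 other pairs. With 3 libraries per group this cannot settle whether the numbers pair the samples. With the replicate number as a block 0 genes and 0 members were called in each comparison. Precision is limited by 3 libraries per group with a biological coefficient of variation of 0.731.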
